A study of Mus musculus with 7 samples.

Results

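Zfp genes encode zinc finger proteins, and those that oocytes express were followed here from the germinal vesicle (GV) stage to metaphase II (MII), with and without BYBX, a ligand of RNA G-quadruplexes (rG4s). The members were selected by measured values: an entry was kept when its symbol was Zfp followed only by digits and when the mean of its 3 group means was at least 1 FPKM (fragments scaled to transcript length and sequencing depth). Of 374 such entries, under 365 symbols, 188 entries under 187 symbols passed, because Zfp433 was listed in 2 entries. Another 178 had a lower level and 8 were at 0 in every library. The members made up 2.04% of the 9202 entries of any name that passed the same level.

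Each Smart-seq2 library held 10 oocytes of 4-week-old C57BL/6 females. By the study's methods, the females were primed with pregnant mare serum gonadotropin before GV oocytes were taken. The libraries comprised 2 of GV oocytes, 3 of MII oocytes matured in the solvent DMSO and 2 of MII oocytes matured in BYBX, and MII oocytes were collected after 16 h of culture in M16 medium. The labels call the genotype of the GV and DMSO groups "Control" and that of the BYBX group "Treat", and they name no treatment for GV, whereas the study's methods give control oocytes the same concentration of DMSO. No deletion or transgene is named for any group. Nothing says whether libraries of 1 group came from separate animals or cultures, so p-values measure the spread between these libraries, which may be technical. The values were scaled to an external spike-in (ERCC RNAs) by the study, so a level stands for polyadenylated RNA per library and a general change is kept. A lower level of RNA and a shorter poly(A) tail cannot be told apart, since reverse transcription started from oligo-dT.

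Most mouse Zfp proteins carry C2H2 fingers, small folds in which a pair of cysteines and a pair of histidines hold a zinc ion and neighboring fingers read DNA. A large group also carries a KRAB domain, which recruits the corepressor Trim28 (KAP1) and, through the methyltransferase Setdb1, places repressive histone marks on imprinted loci and retroelements. Other members bind RNA or act on ribosomes. The GV oocyte is transcriptionally silent, and maternal RNAs are deadenylated and lost during maturation.

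Sequences of GRCm38 (mm10) transcripts in the GENCODE vM21 annotation gave the features that the selection did not use, and 187 of the 188 members matched a coding transcript. A KRAB A box was found in 70 members and not in 117. The median member carried 10 C2H2 fingers, 100 members had at least 10, and Zfp142 had the most, with 36. No finger of this pattern was found in 7 members, among them Zfp36, an RNA-binding protein with another type of finger, and Zfp750. A predicted rG4, here 4 stretches of 3 or more G, each separated by 1 to 7 bases, was present in 20 members (10.7%), against 17.4% of all 8873 tested entries with a matched transcript. The following examples, from members named below and from each part of the transcript, show the type of element that BYBX is meant to bind, read on the RNA strand with the G runs in capitals.
Zfp513 (coding part, chr5:31200611-31200634, minus strand): GGGGcaggaGGGccGGGtGGGGGG
Zfp957 (3′ UTR, chr14:79212446-79212465, minus strand): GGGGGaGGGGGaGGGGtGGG
Zfp91 (3′ UTR, chr19:12767756-12767781, minus strand): GGGGttGGGGtGGGGctgaaaGGGGG
Zfp568 (5′ UTR, chr7:29984109-29984129, plus strand): GGGcttcGGGctGGGcgcGGG

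The summed member level was 4834 and 3529 FPKM in the GV libraries, 632, 641 and 593 FPKM in MII with DMSO, and 1864 and 1513 FPKM in MII with BYBX. The groups did not overlap, and the mean sum with DMSO was 14.9% and that with BYBX 40.4% of GV. All listed entries together kept 27% and 50.3% of their GV sum. Zfp57 alone made up 29.6% and 30.4% of the member sum in GV, 13.4% to 16.7% with DMSO and 26.6% to 38.3% with BYBX. Without it, the members' share of the total FPKM was 0.653% ± 0.0590 (SD, n = 2) in GV, 0.442% ± 0.0513 (SD, n = 3) with DMSO and 0.509% ± 0.0605 (SD, n = 2) with BYBX. No p-value is given for these sums, since the members were chosen on their levels. The median member was at 6.43 FPKM in GV, 1.03 FPKM with DMSO and 2.68 FPKM with BYBX. All tested entries together had medians of 12.7, 1.78 and 5.64 FPKM, so a typical Zfp transcript was less abundant than a typical tested transcript in each group.

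All 8 oocyte markers were detected in every library. Zp3 was at 3124 and 2773 FPKM in GV, 73.4, 59.3 and 106 FPKM with DMSO and 1144 and 942 FPKM with BYBX, and the lowest marker value was 8.19 FPKM, for Ddx4 in 1 library with DMSO. The granulosa and cumulus list of 8 genes summed to 3.56 to 6.17 FPKM in GV, 1.44 to 1.71 with DMSO and 2.36 to 2.37 with BYBX. The largest part was Cyp19a1, at 4.49 and 2.19 FPKM in GV, 1.57, 1.29 and 1.58 with DMSO and 1.49 and 1.72 with BYBX. It was lower than in GV with DMSO and with BYBX (limma adjusted p = 0.0082 and 0.030). Fshr and Cyp11a1 reached 0.757 and 0.569 FPKM in GV, and Foxl2 and Amh were at 0.138 FPKM or below in every library. The erythrocyte, immune and stroma lists summed to at most 1.13 FPKM. The sums of the 8 oocyte markers ranged from 9616 to 12544 FPKM in GV, 1716 to 1880 with DMSO and 5001 to 5474 with BYBX. Both lists thus moved with the groups in the same order as the members, and their part in the results was not tested. The depth per library is unknown, and only the 2 or 3 libraries per group set the precision.

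The 10 members of highest mean level were Zfp57, Zfp296, Zfp655, Zfp212, Zfp207, Zfp706, Zfp750, Zfp108, Zfp982 and Zfp513. Zfp57 protects DNA methylation at imprinted loci as a maternal and zygotic factor. It was at 1433 and 1071 FPKM in the GV libraries, 95.1, 86.1 and 99.2 FPKM with DMSO, and 715 and 402 FPKM with BYBX. No library of one group overlapped another group, and the mean in MII with DMSO was 7.47% of that in GV, against 44.6% with BYBX. Zfp296, a factor known from pluripotent and germ cells, was at 453 and 358 FPKM in GV, 8.36, 8.99 and 7.02 FPKM with DMSO, and 99.2 and 80.7 FPKM with BYBX. It kept 2.0% of its GV level with DMSO and 22.2% with BYBX.

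**Figure D1:**
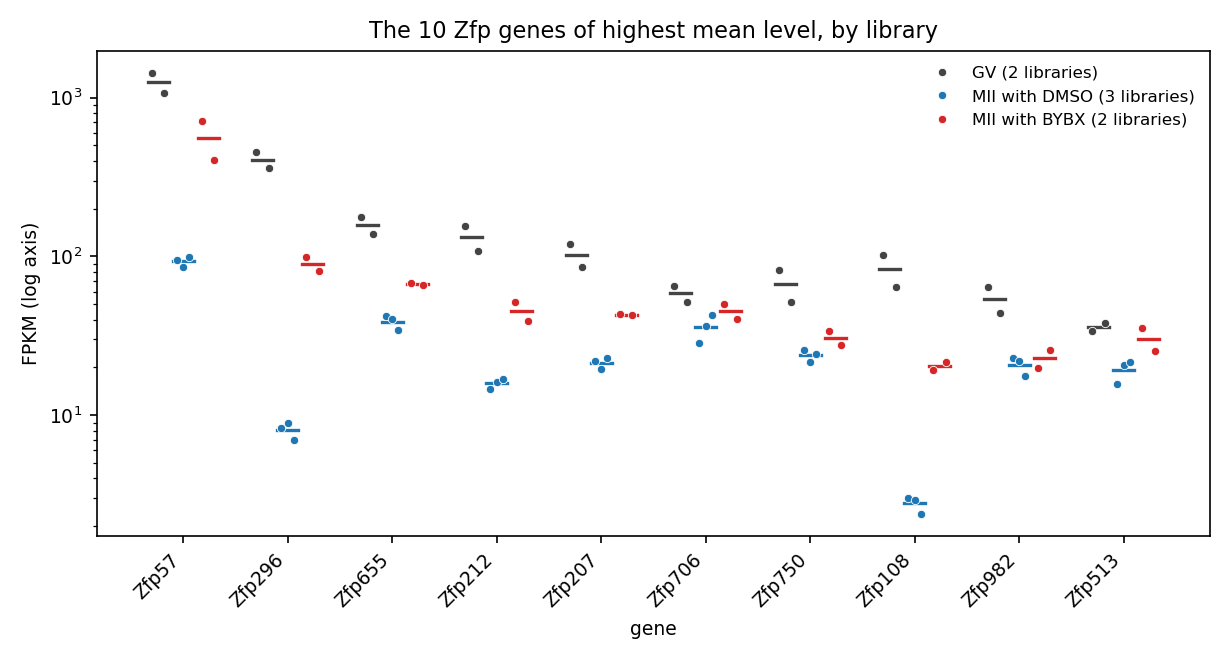
FPKM (log axis) of the 10 Zfp genes of highest mean level, 1 point per library and a bar at each group mean, for GV, MII with DMSO and MII with BYBX. Zfp57 lies highest in every group, and Zfp296 and Zfp108 fall furthest with DMSO, to 2.0% and 3.33% of their GV mean, while Zfp706 and Zfp513 keep 61.2% and 53.6% on this spike-in scale.

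To ask which Zfp transcripts were lost during control maturation, MII with DMSO was compared with GV by limma on log2(FPKM + 1), fitted to all 9202 entries and called at a Benjamini-Hochberg adjusted p under 0.05. Of the 188 members, 173 were lower in MII and 1 was higher, against 88.3% lower and 0.272% higher among all tested entries. The median log2 change was -1.79 for members and -1.83 for all tested entries. This scale understates changes near or below 1 FPKM, so the share of the GV level that was left is given as well. It had a median of 13.5% for members and 16.3% for all tested entries with a GV value above 0, and 29.8% of members and 26.6% of these entries kept under 5%. A mean over groups can select a gene through its GV level alone, as for the 26 members with both MII means under 1 FPKM, and such members had to differ.

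The size of the change depended on the scale, and median centring, but not equal totals, turned the direction of most calls. With every library set to the same total FPKM, 95 members were lower and 33 higher (49.5% and 23.3% of all tested entries), and with libraries centred on their median 36 were lower and 92 higher (26.7% and 48.8%). Centring moved the median of all tested entries from -1.83 to 0.47 and that of the members to 0.52. It added the same amount to every change on log2(FPKM + 1). A member of low GV level thus came out higher even where it fell to near 0 with DMSO, as Zfp622 did, with 0.23. How many of the 92 arose this way was not counted.

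Zfp57 fell by 3.72 on the log2 scale (standard error 0.28, limma adjusted p = 2.2e-08) and Zfp296 fell by 5.47 (standard error 0.25, limma adjusted p = 4.4e-10). Among members whose higher group had a mean of 5 FPKM or more and whose libraries did not overlap, the 5 falls of largest size were those of Zfp707, Zfp296, Zfp524, Zfp593 and Zfp108. These 5 were also the largest falls after median centring, where their log2 changes were -3.34, -3.17, -3.04, -2.32 and -2.15. Zfp707 was at 66.3 and 50.8 FPKM in GV and at 0.00870, 0.129 and 0.452 FPKM with DMSO. Zfp524 was at 44.9 and 38.3 FPKM in GV, and with DMSO it was listed at 0.0838, 0 and 0.0545 FPKM. Zfp593, the counterpart of a yeast export factor of the large ribosomal subunit, was at 28.6 and 20.4 FPKM in GV and between 0.0101 and 0.0406 FPKM with DMSO. These transcripts were abundant in both GV libraries and under 0.5 FPKM in all 3 libraries with DMSO. Zfp108 went from 103 and 64.5 FPKM to 3.03, 2.94 and 2.39 FPKM. The limma adjusted p was 1.4e-09 for Zfp707, 2.7e-10 for Zfp524, 6.4e-10 for Zfp593 and 2.2e-09 for Zfp108. Exons of Zfp296 overlap Gemin7, those of Zfp524 overlap Fiz1 and those of Zfp593 overlap E130218I03Rik on the opposite strand. No strand was kept, so reads of such partners cannot be told apart, and 16 members have an overlap of this kind. Exons of 7 members overlap an exon of another gene on the same strand.

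**Figure D2:**
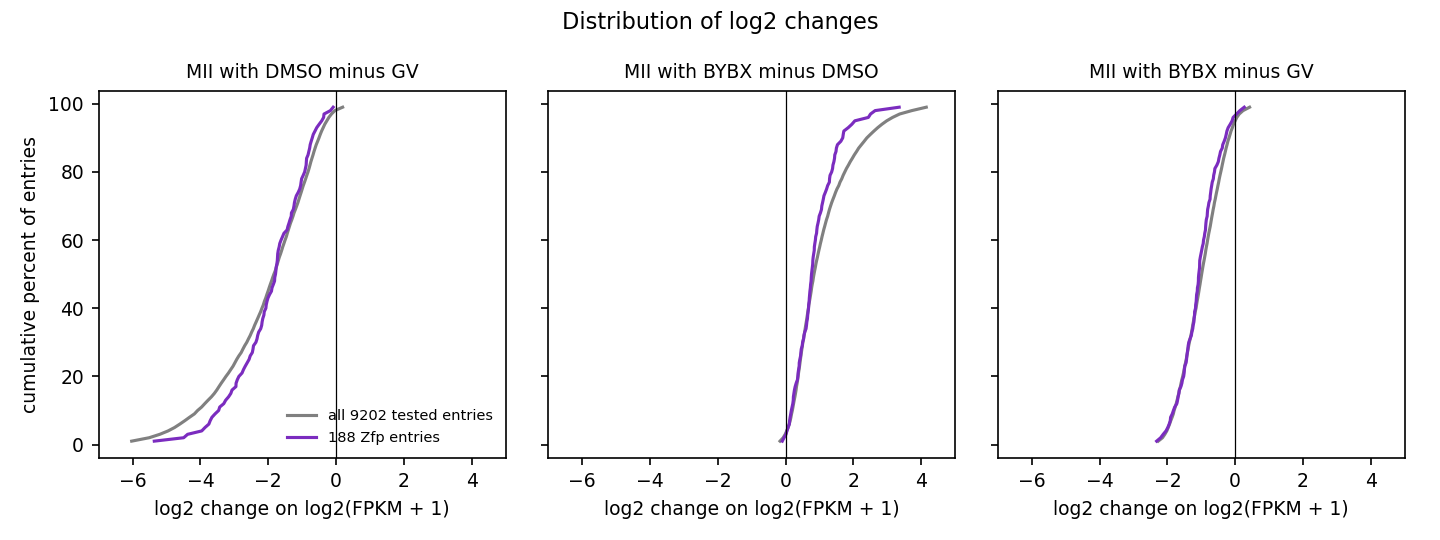
Cumulative percent of entries (y axis, from the 1st to the 99th percentile) against the log2 change on log2(FPKM + 1) in the 3 comparisons, for the 188 Zfp entries and all 9202 tested entries. The medians lie close together, at -1.79 and -1.83 for MII with DMSO minus GV, 0.76 and 0.84 for BYBX minus DMSO, and -1.07 and -0.99 for MII with BYBX minus GV, all on the spike-in scale. Median centring turns the first to 0.52 and 0.47 and the second to -0.51 and -0.44.

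At the other end, 14 members were not called between MII with DMSO and GV, and they had 60.8% to 103% of their GV mean. After median centring the largest rises among members of at least 5 FPKM were those of Zfp664, Zfp957, Zfp820, Zfp91 and Zfp60. Zfp664 was at 25.6 and 26.1 FPKM in GV, at 14.3, 30.8 and 26.0 FPKM with DMSO, and at 49.6 and 18.2 FPKM with BYBX. The 3 groups overlapped, and its log2 change of -0.18 (standard error 0.39, limma adjusted p = 0.66) became 0.13 without the first library with DMSO. Zfp957 was at 28.1 and 21.5 FPKM in GV and at 17.4, 16.3 and 17.8 FPKM with DMSO, below both GV libraries. Its log2 change was -0.50 (limma adjusted p = 0.070), and without the second GV library it was -0.68 with an adjusted p of 0.031. Zfp60 was between 11.7 and 17.7 FPKM with DMSO against 31.0 and 17.6 FPKM in GV, with a log2 change of -0.59 (limma adjusted p = 0.071) that became -0.98 without the second GV library (limma adjusted p = 0.018). The log2 changes of Zfp820 and Zfp91 were -0.51 and -0.57 (limma adjusted p = 0.099 and 0.068), and that of Zfp91 passed the threshold without the first or the second BYBX library (limma adjusted p = 0.035 and 0.038). Under median centring the changes of these 5 genes were 2.12, 1.81, 1.8, 1.73 and 1.72, in the order Zfp664, Zfp957, Zfp820, Zfp91 and Zfp60, all past the threshold.

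Among the abundant members, Zfp706, which restrains self-renewal of embryonic stem cells, was at 65.5 and 51.7 FPKM in GV and 28.4, 36.6 and 42.5 FPKM with DMSO. Its log2 change of -0.70 (limma adjusted p = 0.024) lost the call without the first GV library (-0.54, limma adjusted p = 0.14) or the first library with DMSO (-0.55, limma adjusted p = 0.091), turning to 1.14 with equal totals and 1.6 after centring. Zfp513 changed by -0.88 (limma adjusted p = 0.0064), Zfp750, an epidermal differentiation factor, by -1.42 (limma adjusted p = 2.1e-04) and Zfp982 by -1.32 (limma adjusted p = 3.9e-04), and these 3 turned to 0.94, 0.42 and 0.52 at the same total FPKM. Zfp207, which promotes spindle assembly and binds the checkpoint protein Bub3, was at 120 and 86.0 FPKM in GV and 21.9, 19.5 and 22.9 FPKM with DMSO. It fell by 2.19 on the log2 scale (limma adjusted p = 1.6e-06), with a change of 0.11 after centring. Zfp212 fell by 2.95 and Zfp655 by 1.99 (limma adjusted p = 1.2e-07 and 3.7e-06), the latter with a change of 0.31 after centring.

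The single member called higher in MII with DMSO was Zfp985. It was at 0.639 and 0.959 FPKM in GV, 3.04, 1.35 and 1.97 FPKM with DMSO, and 2.13 and 2.09 FPKM with BYBX, so that every MII library lay above both GV libraries. The log2 change was 0.76 (standard error 0.23, limma adjusted p = 0.0071), and without the first GV library it was 0.63 with an adjusted p of 0.087. It was the only member with a GV mean under 1 FPKM, and it passed the level through its MII values.

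**Figure D3:**
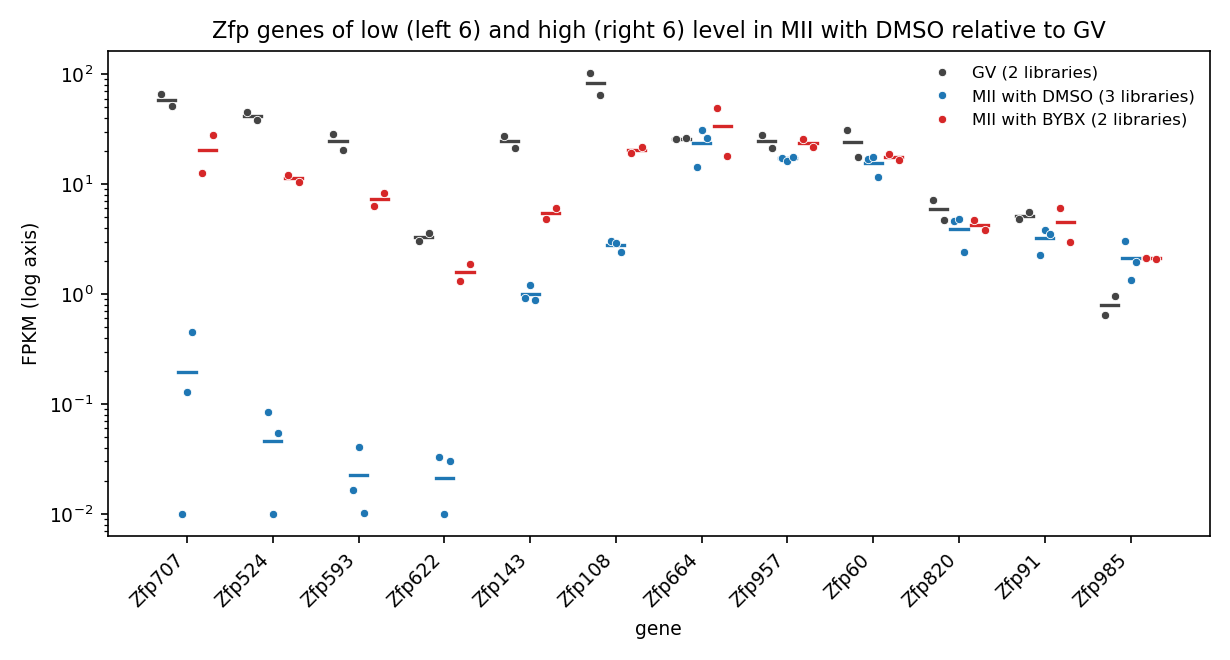
FPKM (log axis) of 6 Zfp genes with a low share of the GV level in MII with DMSO (left) and 6 with a high share (right), 1 point per library and a bar at each group mean, values under 0.01 drawn at 0.01. Zfp707, Zfp524, Zfp593 and Zfp622 are at 0.452 FPKM or below in each library with DMSO and at 1.33 FPKM or above with BYBX. Zfp985 is higher in MII than in GV.

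To ask how BYBX changed the MII level, both MII groups were compared. Of the 188 members, 124 were higher with BYBX and 0 were lower by limma (65.2% and 0.0326% of all tested entries), and the median log2 change was 0.76 for members and 0.84 for all tested entries. At the same total FPKM 72 members were higher and 7 lower (39.9% and 8.22% of all tested entries). After median centring 13 were higher and 91 lower (18.4% and 43.9%). Here centring took the same amount from every change, so a member of low level with BYBX came out lower whatever its level with DMSO. How many of the 91 arose this way was not counted. The mean order GV above BYBX above DMSO held for 175 members (93.1%), against 91.7% of tested entries. The median share of the GV level was 37.8% for members with BYBX and 43.4% for all tested entries with a GV value above 0.

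The 56 members under 5% of GV with DMSO had 9.95% to 48.1% of GV with BYBX, with a median of 26.0%. Of the members, 27 (14.4%) had at least 50% of GV with DMSO, against 19.5% of all tested entries with a GV value above 0. These 27 had a median of 79.8% with BYBX. The shares of GV with DMSO and with BYBX use the same GV libraries. The members were split by the DMSO value, so these levels are a description, and no count of calls is given for the split. The 5 rises of largest size with BYBX were those of Zfp707, Zfp524, Zfp296, Zfp593 and Zfp108, and the same genes led after median centring, with 2.80, 2.28, 2.04, 1.73 and 1.23. Zfp707 reached 12.7 and 28.1 FPKM with BYBX, Zfp524 reached 12.2 and 10.5 FPKM and Zfp593 reached 6.30 and 8.21 FPKM. All these libraries lay above all libraries with DMSO and below both GV libraries. On the log2 scale the rise was 4.08 for Zfp707 (standard error 0.31, limma adjusted p = 1.8e-07), 3.56 for Zfp524, 3.32 for Zfp296, 3.0 for Zfp593 and 2.51 for Zfp108, with adjusted p of at most 2.4e-06. With a pseudocount of 0.1 in place of 1 the rises were 6.31, 6.34, 3.45, 5.91 and 2.84 in the same order of genes, so the size and rank of genes near 0 with DMSO depend on it. The falls of Zfp707, Zfp524 and Zfp593 from GV to MII with DMSO were then -7.92, -8.20 and -7.64. Zfp57 rose by 2.51 (standard error 0.28, limma adjusted p = 4.2e-06), with 1.62 left when totals were equalized and 1.23 after centring. Zfp212 rose by 1.45 and Zfp207 by 0.98 (limma adjusted p = 3.0e-04 and 0.0039), with changes of 0.17 and -0.30 after centring. Zfp655 rose by 0.78 (limma adjusted p = 0.014), a change of -0.10 at the same total FPKM, and the call was lost without the first or the second BYBX library (limma adjusted p = 0.072 and 0.053).

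**Figure D4:**
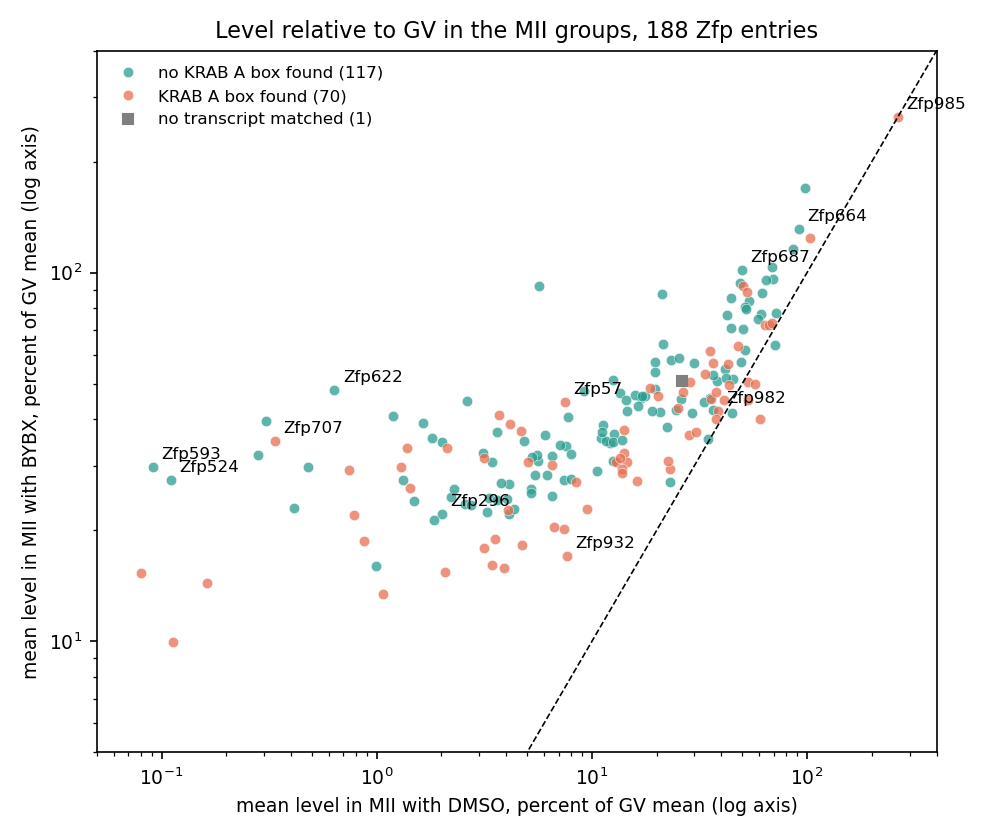
Mean level in MII with BYBX (y axis) against that in MII with DMSO (x axis), each as percent of the GV mean on log axes, for the 188 Zfp entries colored by whether a KRAB A box was found. The dashed line marks equal levels in both MII groups. With BYBX no entry is below 9.95%, whereas 56 entries are below 5% with DMSO, all on the spike-in scale, and both axes share the GV libraries. Of all tested entries with a GV value above 0, 0.109% are below 5% with BYBX and 26.6% with DMSO.

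Some abundant members were not called between the MII groups on the spike-in scale. Zfp982 was at 22.8, 22.1 and 17.7 FPKM with DMSO and at 19.8 and 25.8 FPKM with BYBX, a log2 change of 0.12 (standard error 0.27, limma adjusted p = 0.70). Zfp616 was at 12.2, 12.6 and 6.09 FPKM with DMSO and 8.17 and 10.9 FPKM with BYBX, Zfp735 at 13.6, 12.4 and 6.27 against 9.27 and 11.0 FPKM, Zfp942 at 9.14, 11.1 and 4.68 against 6.67 and 7.51 FPKM, and Zfp979 at 10.1, 7.52 and 4.16 against 6.12 and 9.80 FPKM. The libraries of both groups overlapped for each of these 5 genes, and the log2 changes were -0.05, -0.02, -0.13 and 0.15 for the last 4 (limma adjusted p of at least 0.67). Their sign turned when single MII libraries were left out. Among members of at least 5 FPKM they are the largest falls after median centring, at -1.41 for Zfp942, -1.33 for Zfp616, -1.30 for Zfp735, -1.16 for Zfp982 and -1.12 for Zfp979. For 35 members the BYBX libraries differed from each other by more than 2-fold. Zfp598 is an example, at 26.2 and 6.69 FPKM with BYBX and at 3.9, 11.1 and 10.6 FPKM with DMSO.

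Compared with GV, 148 members were lower and 1 was higher in MII with BYBX (69.2% and 0.315% of all tested entries), with a median log2 change of -1.07 for members and -0.99 for all tested entries. At the same total FPKM 26 were lower and 2 higher (13.3% and 5.30%), and after centring 23 were lower and 20 higher (13.6% and 15.2%). The falls of largest size among members of at least 5 FPKM and without overlap were those of Zfp433, in both of its entries, Zfp932, Zfp345 and Zfp958. Zfp433 was at 17.3 and 11.9 FPKM in GV and at 1.19 and 3.01 FPKM with BYBX in 1 entry, with 14.4% of GV left, and at 18.8 and 11.3 against 1.25 and 1.75 FPKM in the other, with 9.95% left. The log2 changes were -2.31 for Zfp932, -2.29 for Zfp345 and -2.16 for Zfp958 (limma adjusted p = 1.0e-04, 5.9e-05 and 6.9e-05). Zfp296 changed by -2.16 (limma adjusted p = 6.9e-05). Zfp57 changed by -1.21 (limma adjusted p = 0.0033), and without the first GV library or the second BYBX library the adjusted p was 0.058 and 0.057. With equal totals the change became -0.22, and after centring -0.18, neither past the threshold. The higher member was again Zfp985 (0.79, limma adjusted p = 0.013), which missed the threshold without the first GV library (limma adjusted p = 0.12).

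Of 8 genes listed for silencing of imprinted genes and retroelements, 6 passed the level and Zfp809 and Zfp819 did not. With DMSO 5 of the 6 were lower than in GV and 0 higher, with BYBX 4 were higher than with DMSO and 0 lower, and 4 were still lower than in GV. Of all tested entries 88.3%, 65.2% and 69.2% were called in these directions, so the counts over these 6 genes lie close to the background. The median share of GV was 28.8% with DMSO and 47.6% with BYBX. Zfp932, a KRAB protein that represses endogenous retroviruses, was at 24.2 and 17.7 FPKM in GV, 1.56, 2.42 and 0.833 FPKM with DMSO and 2.31 and 4.82 FPKM with BYBX. Its rise with BYBX of 0.80 (limma adjusted p = 0.036) is from overlapping libraries and was -0.48 after centring, and without the second BYBX library it was 0.39 (limma adjusted p = 0.33). The call was also lost without the third library with DMSO (0.57, limma adjusted p = 0.15) and without the first or the second GV library (limma adjusted p = 0.069 and 0.070). Zfp568, which silences a placental transcript of Igf2, was at 5.42 and 5.07 FPKM in GV, 2.33, 2.08 and 3.51 FPKM with DMSO and 5.40 and 4.25 FPKM with BYBX. The BYBX libraries thus overlapped those of GV. Its change with DMSO was -0.80 (limma adjusted p = 0.0060), turning to 0.68 at the same total FPKM. Its rise with BYBX was 0.69 (limma adjusted p = 0.020) and lost its call without the first library with DMSO (0.64), the second library with DMSO (0.58) or the first BYBX library (0.55), with adjusted p of 0.058, 0.087 and 0.13. Zfp445, which protects imprints together with Zfp57, had a mean of 4.15 FPKM in GV, 1.18 FPKM with DMSO and 2.10 FPKM with BYBX. Zfp600 was at 2.47 and 1.86 FPKM in GV and between 0.933 and 2.09 FPKM in MII with DMSO, with overlapping libraries. Zfp708, a repressor of a retroelement family, had means of 2.62, 0.765 and 1.09 FPKM in the 3 groups.

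Of 10 genes for RNA binding, ribosomes or splicing, 9 passed the level, and 8 of them were lower with DMSO than in GV and 5 higher with BYBX than with DMSO, with 0 in the other direction. With BYBX 7 were lower than in GV, and the shares of all tested entries were 88.3%, 65.2% and 69.2% for these calls. The median share of GV was 20.8% with DMSO and 48.1% with BYBX. Zfp622, a factor of late ribosome assembly, was at 3.03 and 3.6 FPKM in GV, at 0.0333, 0 and 0.0300 FPKM with DMSO, and at 1.33 and 1.86 FPKM with BYBX. It fell by 2.08 with DMSO (limma adjusted p = 8.4e-08), with a change of 0.23 after centring, and rose by 1.34 with BYBX (limma adjusted p = 2.2e-05), a rise that was 0.059 after centring (limma adjusted p = 0.81) and 3.80 with a pseudocount of 0.1. Zfp830, a splicing protein, had means of 28.6, 1.77 and 8.07 FPKM. Zfp36, which promotes decay of mRNAs with AU-rich elements, was at 3.63 and 2.30 FPKM in GV, 1.32, 2.46 and 2.54 FPKM with DMSO and 2.32 and 1.46 FPKM with BYBX. These ranges overlap, and the log2 change between MII with DMSO and GV was -0.36 (limma adjusted p = 0.19), against 0.98 at the same total FPKM. Zfp346, which binds double-stranded RNA, and Zfp638 kept 15.9% and 38.2% of GV with DMSO and 46.6% and 50.7% with BYBX. Zfp106 was at 45.2% and 51.4%. Zfp598, the ubiquitin ligase that senses collided ribosomes, was at 44.2% and 85.3%.

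Of 19 chromatin and transcription regulators, 10 passed the level, and 8 of them were lower with DMSO than in GV and 7 higher with BYBX than with DMSO, with 0 in the other direction. With BYBX 7 were lower than in GV, again beside 88.3%, 65.2% and 69.2% of all tested entries. The median share of GV was 18.1% with DMSO and 44.2% with BYBX. Zfp143, an activator at many promoters, was at 27.6 and 21.3 FPKM in GV, 0.911, 1.21 and 0.886 FPKM with DMSO and 4.81 and 6.02 FPKM with BYBX. It fell by 3.66 with DMSO (limma adjusted p = 4.1e-09) and rose by 1.68 with BYBX (limma adjusted p = 2.8e-05), a change of 0.40 after centring. Zfp592, Zfp687 and Zfp532 encode proteins of the same chromatin complex. Zfp592 kept 14.6% of GV with DMSO and 42.1% with BYBX, and Zfp532 kept 19.1% and 42.1%. Zfp687 kept 49.6% and 102%, from 5.77 and 3.15 FPKM in GV to 2.66, 1.52 and 2.46 FPKM with DMSO and 4.28 and 4.79 FPKM with BYBX. Its rise of 0.80 with BYBX (limma adjusted p = 0.015) was -0.48 after centring, and it missed the threshold without the second library with DMSO (limma adjusted p = 0.070) or the second BYBX library (limma adjusted p = 0.059). Exons of Zfp687 overlap Pi4kb on the other strand. Zfp281, a pluripotency factor, kept 6.07% and 36.2%, Zfp384 kept 17.2% and 46.3%, and Zfp148 kept 42.1% and 51.8%. Zfp423 and Zfp217 kept 71.9% and 85.7% with DMSO, with no call in any of the 3 comparisons.

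The KAP1 list holds genes of the corepressor machinery that KRAB proteins use. Of its 8 genes 6 were tested, 4 fell from GV to MII with DMSO and 3 were higher with BYBX than with DMSO, against 88.3% and 65.2% of all tested entries. Setdb1 was at 68.6 and 54.3 FPKM in GV, 5.23, 4.01 and 5.27 FPKM with DMSO and 24.1 and 19.3 FPKM with BYBX. Trim28 was at 33.6 and 43.3 FPKM in GV, 14.4, 29.2 and 33.2 FPKM with DMSO and 54.7 and 24.0 FPKM with BYBX, and was not called (limma adjusted p = 0.13 for DMSO minus GV). The values of Trim28 overlapped between all groups except that the libraries with DMSO were below both of GV.

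Members with and without a KRAB A box had like levels in GV, with medians of 6.42 and 6.43 FPKM. They kept a median of 13.9% and 12.5% of GV with DMSO, and 34.2% and 40.5% with BYBX. With BYBX, 38 of 70 KRAB members (54.3%) and 85 of 117 others (72.6%) were called higher than with DMSO, beside 65.2% of all tested entries. With equal totals 30% and 43.6% were higher, and after median centring 2.86% and 9.40% were higher and 55.7% and 44.4% lower. The median FPKM of KRAB members was 7.90 and 5.05 in the GV libraries, 1.18, 0.990 and 0.686 with DMSO, and 1.97 and 2.26 with BYBX. That of the others was 7.48 and 5.34, then 0.981, 0.886 and 1.15, then 3.26 and 3.08. KRAB members thus lay below the others in both BYBX libraries, whereas the order varied among the GV and DMSO libraries. The difference was not tested. The KRAB pattern behind this split was widened after its first form, which found 56 members, missed Zfp57. No levels or calls are given for a split by that first form. KRAB transcripts also had a lower GC content, with a median of 39.3% against 49.6%, more fingers (12 against 8) and rG4 motifs in 4.29% against 14.5%.

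The 20 members with a predicted rG4 motif kept a median of 13.7% of GV with DMSO and 49.6% with BYBX, and the 167 without one kept 12.9% and 37.3%. Among all tested entries the values were 20.4% and 49.4% with a motif, and 15.8% and 42.3% without. With BYBX, 14 of the 20 and 109 of the 167 were called higher than with DMSO (70% and 65.3%). Among all tested entries the order was the other way, with 61.9% called higher with a motif and 66.0% without. The 4 genes whose motifs are printed above were chosen because other rules already named them, Zfp957 and Zfp91 among the largest rises after median centring, and do not stand for the 20. Members with a motif also had a higher GC content (median 51% against 43.9%) and a lower GV level (median 3.11 against 6.68 FPKM).

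Cytoplasmic polyadenylation elements are U-rich sites near the end of the 3′ UTR through which stored oocyte RNAs gain a poly(A) tail. The letters TTTTAT or TTTTAAT, searched on the transcript strand in the last 100 bases of 3′ UTRs at least that long, were present in 28 of 176 members (15.9%) and in 20.5% of 8264 tested entries. Members with an element kept a median of 17.9% of GV with DMSO and those without 12.5%. For all tested entries these medians were 32.9% and 13.9%. Of the 28, 24 were called lower with DMSO than in GV (85.7%), against 93.2% of members without an element. Among all tested entries these shares were 79.7% and 90.6%. The examples below were taken from members that kept a large share of GV and do not stand for the 28. They are shown with 10 bases on each side and the element in capitals.
Zfp664 (chr5:124888521-124888546, plus strand): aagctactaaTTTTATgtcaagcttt
Zfp957 (chr14:79212373-79212398, minus strand): ataaataaatTTTTATtaaactaata
Zfp568 (chr7:30025011-30025036, plus strand): agcgcataccTTTTATcccagcactt
In Zfp664 the element ends 94 bases before the annotated transcript end, in Zfp957 28 bases and in Zfp568 85 bases before it. A match describes these letters and does not show that the element is used.

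Zfp genes lie in clusters, and 75 of the 186 members with a distinct position were within 100 kb of another member. Chromosome 7 held 45, chromosome 17 held 25, chromosome 8 held 19 and chromosome 4 held 12. The 45 entries of chromosome 7 kept a median of 5.67% of GV with DMSO and 32.5% with BYBX, and 34 were called higher with BYBX than with DMSO, against 65.2% of all tested entries. The 12 of chromosome 4 kept 40.0% and 46.4%, and 2 were called higher with BYBX. Lower medians with DMSO than on chromosome 7 were found for the 4 members of chromosome 10 (2.08%) and the 7 of chromosome 15 (3.78%). Of the 12, 9 lie between bases 145510759 and 147848366 of chromosome 4 (Zfp990, Zfp980, Zfp600, Zfp981, Zfp982, Zfp985, Zfp979, Zfp984 and Zfp933), and all 9 carry a KRAB A box. In MII with DMSO 6 of the 9 were lower than in GV and Zfp985 was higher, against 88.3% and 0.272% of all tested entries. With BYBX 1, Zfp933, was higher than with DMSO, against 65.2% of all tested entries. The median share of GV for the 9 was 41.3% with DMSO and 45.2% with BYBX. Clustered KRAB genes include near-identical copies. The study kept uniquely mapped reads, so single members of such clusters are uncertain, and the differences between chromosomes were not tested.

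**Figure D5:**
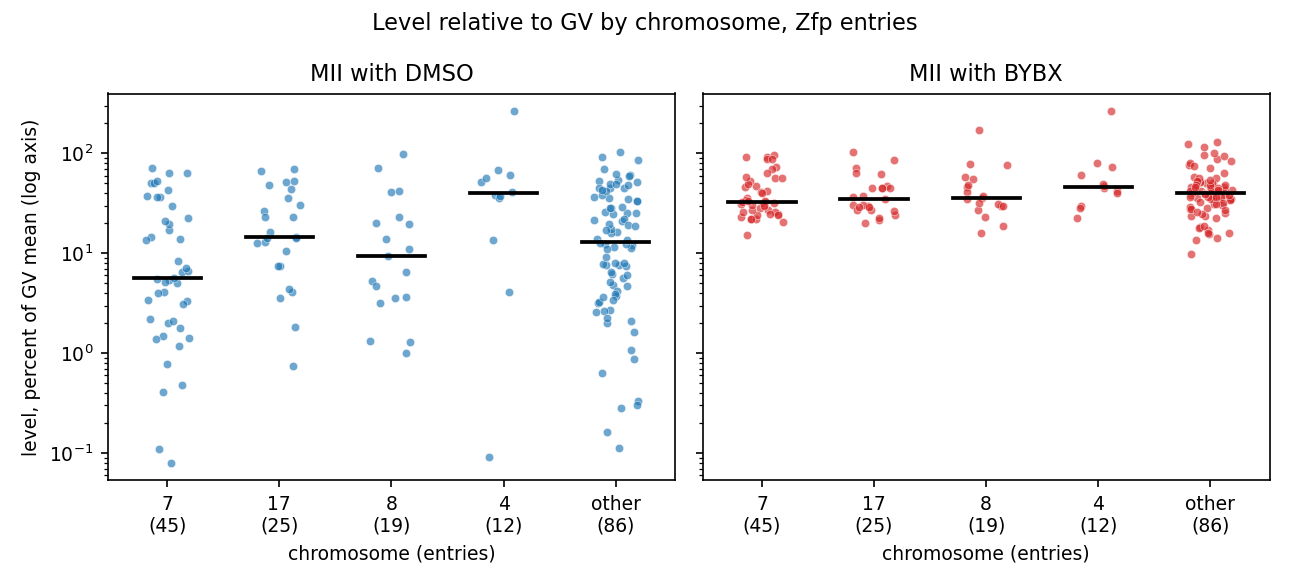
Level in MII with DMSO (left) and with BYBX (right) as percent of the GV mean (log axis) for Zfp entries on chromosomes 7, 17, 8, 4 and all others, 1 point per entry and a bar at the median, with the number of entries below. Among the groups drawn, the medians with DMSO run from 5.67% on chromosome 7 to 40.0% on chromosome 4, and with BYBX from 32.5% to 46.4%, on the spike-in scale.

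Zfp981, Zfp217 and Zfp759 lay just inside the level, with means over groups of 1.0, 1.05 and 1.10 FPKM. Zfp644, Zfp688 and Zfp987 lay just outside it, at 0.988, 0.965 and 0.925 FPKM. Zfp688 was at 2.41 and 2.39 FPKM in GV, listed at 0 in the 3 libraries with DMSO, and at 0.352 and 0.637 FPKM with BYBX. Zfp644 went from a mean of 1.57 FPKM in GV to 0.716 FPKM with DMSO and 0.674 FPKM with BYBX, and Zfp981 from 1.5 to 0.911 and 0.601 FPKM. Among these edge genes the order of the MII groups thus differed.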

How the data were processed

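The authors trimmed the Smart-seq2 reads with Trim Galore 0.6.7, aligned them to mm10 with HISAT2 2.2.1, kept uniquely mapped reads and computed FPKM with Cufflinks 2.2.1 on UCSC gene models. The deposited FPKM values were scaled by the authors with ERCC spike-in reads and then, across batches, with the GV samples in each, with factors not given in the sources used here. Such values hold no read counts, so depth is unknown, and no interval for counting error is given. Of 25912 entries, 4 with a missing value were left out.

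limma 3.58.1 in R 4.3.3 (lmFit, eBayes with an intensity trend) modelled log2(FPKM + 1) in 9202 entries whose 3 group means averaged 1 FPKM or more. All 7 libraries were in 1 model (4 residual degrees of freedom). The fit was also run on simulated data in which few entries changed, unlike the general change here. That run gives no error rate for these data. Alternatives were no filter or one at 5 FPKM, a pseudocount of 0.1, median centring, libraries set to equal total FPKM, fits of 2 groups, a replicate block, no trend, a 2-fold minimum, repeated names left out and leaving out each library.

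Named genes were members of 3 functional lists, the 10 of highest mean, the 5 largest changes per comparison (higher group at 5 FPKM or more and libraries not overlapping, or ranked after median centring), any member changed against the majority, and the 3 entries on each side of the level. Zfp142, Zfp787, Zfp933, Zfp984, Zfp980 and Zfp990 were named after their values were seen. The members, lists and tests were chosen with earlier results of these data known. Fingers were C, 2 to 4 residues, C, 12 residues, H, 3 to 5 residues, H in translations of the longest GENCODE vM21 coding part. The search for polyadenylation elements was added after the data were seen, and the KRAB pattern was widened after a first form missed Zfp57, and the first form found 56 members. Tables and plots used Python 3.11.15, pandas 2.3.3 and matplotlib 3.10.9.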

Additional observations from a re-analysis of the deposited data

How the results depend on the processing

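On the spike-in scale the counts of members called and the median changes kept their direction, and most changes of sign came with another scaling. The cause of each change was not tested, except that the filter at 5 FPKM leaves 70 members to test. For the filters, the 2-fold minimum, the replicate block and single libraries left out, no share of all tested entries is given. A change in those counts is thus not a result about Zfp genes in particular. With DMSO against GV, 173 members were lower and 1 higher. The filter at 5 FPKM gave 67 lower and 0 higher, the same total FPKM 95 and 33, median centring 36 and 92, and a 2-fold minimum 0 higher. With BYBX against DMSO, 124 were higher and 0 lower. The filter at 5 FPKM gave 50 higher, the same total 72 higher and 7 lower, median centring 13 and 91, and a 2-fold minimum 61 higher. With BYBX against GV, 148 were lower and 1 higher. The filter at 5 FPKM gave 59 and 0, the same total 26 and 2, median centring 23 and 20, and no filter or a 2-fold minimum gave 0 higher. The median log2 change for DMSO minus GV was -1.79, and -2.79 with a pseudocount of 0.1, -2.57 with the filter at 5 FPKM, -0.72 at the same total and 0.52 after centring. For BYBX minus DMSO it was 0.76, and then 1.37, 1.20, 0.36 and -0.51. For BYBX minus GV it was -1.07, with -0.26 at the same total and -0.048 after centring.

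Leaving out 1 library gave 158 to 175 lower and 0 to 1 higher for DMSO against GV, 97 to 128 higher and 0 to 0 lower for BYBX against DMSO, and 106 to 150 lower and 0 to 2 higher for BYBX against GV. Without the first GV library no member was called higher than GV in either comparison. The medians ranged from -2.02 to -1.56, 0.68 to 0.87 and -1.29 to -0.86.

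With a replicate block 166 members were lower and 1 higher for DMSO against GV, 100 higher and 0 lower for BYBX against DMSO, and 146 lower and 1 higher for BYBX against GV. Deviations of same-numbered libraries correlated at 0.487 and 0.282 for GV and DMSO, and at -0.601 and -0.348 for DMSO and BYBX. For GV and BYBX both values were -0.330. With 2 libraries in GV and in BYBX, the sign depends on how the libraries were numbered. These values therefore cannot decide whether libraries were paired. Of the named genes, the rises with BYBX of Zfp655 (0.69, limma adjusted p = 0.077) and Zfp932 (0.57, limma adjusted p = 0.16) missed the threshold with the block.

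For 49 named comparisons 774 values were recomputed: 679 kept direction and call, 34 lost the call, 11 gained it and 50 turned sign. For DMSO minus GV these were, after centring, Zfp655 0.31, Zfp207 0.11, Zfp706 1.6, Zfp750 0.88, Zfp982 0.99, Zfp513 1.43, Zfp664 2.12, Zfp957 1.81, Zfp60 1.72, Zfp820 1.8, Zfp91 1.73, Zfp568 1.5, Zfp622 0.23 and Zfp36 1.94. At the same total they were Zfp706 1.14, Zfp750 0.42, Zfp982 0.52, Zfp513 0.94, Zfp664 1.62, Zfp957 1.31, Zfp60 1.21, Zfp820 1.05, Zfp91 0.94, Zfp568 0.68 and Zfp36 0.98, and with 1 library left out Zfp664 ranged from -0.40 to 0.13. For BYBX minus DMSO they were, at the same total, Zfp655 -0.10, Zfp706 -0.53, Zfp982 -0.75, Zfp979 -0.65 and Zfp568 -0.00035, and after centring Zfp655 -0.50, Zfp207 -0.30, Zfp706 -0.94, Zfp982 -1.16, Zfp979 -1.12, Zfp568 -0.59, Zfp687 -0.48 and Zfp932 -0.48. With 1 library left out, Zfp982 ranged from -0.067 to 0.30, Zfp616 from -0.36 to 0.14, Zfp735 from -0.33 to 0.17, Zfp942 from -0.46 to 0.091 and Zfp979 from -0.15 to 0.45, and Zfp979 was at -0.15 with the block.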

Other observations

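A further 11 tested entries have a Zfp symbol that ends in letters and were outside the rule. They were named after their values were seen. By limma 10 of them fell and 0 rose from GV to MII with DMSO, and 2 were higher with BYBX than with DMSO, against 88.3% lower and 65.2% higher of all tested entries. Zfp280b was the most abundant, at 94.6 and 76.5 FPKM in GV, 19.6, 22.6 and 26.4 FPKM with DMSO and 61.3 and 40.5 FPKM with BYBX. Its paralog Zfp280d was at 15.3 and 9.84 FPKM in GV, 9.34, 11.3 and 8.17 FPKM with DMSO and 7.38 and 9.79 FPKM with BYBX, with overlapping libraries.

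Zfp787, a member named after its values were seen, had 5.67% of its GV mean with DMSO and 91.8% with BYBX. It was at 2.15 and 1.39 FPKM in GV, 0.0861, 0.196 and 0.0186 FPKM with DMSO, and 2.74 and 0.513 FPKM with BYBX, so the BYBX mean comes from libraries that differ widely and lie on either side of GV. Its transcript carries 3 predicted rG4 motifs, and their part in these values was not tested.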
